A study of Mus musculus with 12 samples.

Results

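The mesothelium is the single sheet of flat cells that covers the lung and lines the chest wall. It is neither endothelium nor the epithelium of the airways, and its cells carry a recognisable set of surface proteins, among them uroplakins, mesothelin and the large mucin that binds it. 10 genes known from mesothelial cells (Upk3b, Upk1b, Msln, Muc16, Gpm6a, Lrrn4, Bnc1, Gpc3, Rspo1 and Krt19) were examined here in RNA from CD31+ lung cells of mice, out of 9338 distinct genes that the 4 deposited tables list. They were selected on their measured values in these tables, by name from the rows that passed the authors' test, so their differences between groups are a description and carry no p-value.

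The cells came from 12 male C57Bl/6J mice in 4 groups of 3, collected at 30 weeks of age, with 1 library for each mouse. WT mice carried floxed Tet2 (TET2fl/fl) without Cre, and TET2 KO mice carried the same alleles with Cdh5-CreERT2, in which an endothelial promoter drives a recombinase that tamoxifen switches on. Both genotypes received tamoxifen (40 mg/kg, given on 3 days when they were 6 to 8 weeks old) and then either chow with 13% of its energy from fat or a high fat diet (HFD, 60% from fat) for 20 weeks, so every control also carried the floxed alleles and the drug. Lung digests were enriched for CD31, an adhesion molecule of endothelial cells that some blood cells also bear, so the preparations were enriched rather than pure.

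The libraries held 36.7 to 56.8 M reads on genes. Levels are given as FPKM (reads scaled to gene length and library total), which allows comparison between genes, and fold changes as log2 values from edgeR's quasi-likelihood fit on the read counts with their standard errors (SE). "Called" means an unadjusted p under 0.05 in that fit, and groups are "apart" where all 3 libraries of one lie above all 3 of the other. Each table holds only genes that the authors' own test passed at an unadjusted p under 0.05, so a gene missing from a table is not shown to be unchanged there. Tet2 itself was listed in neither table that compares the genotypes, so its loss was not checked here. It was listed between the diets in WT cells, at 5.02 ± 0.253 FPKM (SD, n = 3) on chow and 6.37 ± 0.319 on HFD. Of 14 endothelial markers, all were listed in at least 1 table, at 1.96 FPKM or more in every library with a value for the gene.

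TET2 oxidises the methyl group of cytosines that stand before a guanine, which makes CG dinucleotides the bases on which the enzyme acts. Methylation was not measured in these libraries. The recombinase was driven by an endothelial promoter, and whether the cells that made the members' transcripts had lost Tet2 was not tested. TET2 KO therefore names the genotype of the mice. The stretches before the start sites of 4 members whose levels followed the same pattern (below) are printed to show how differently their promoters are built, with CG in capitals. They are taken from RefSeq on GRCm38.p6, run 5′ to 3′ on the strand of the gene and end before its transcribed part.
Upk3b, chr5:136038246-136038495, plus strand: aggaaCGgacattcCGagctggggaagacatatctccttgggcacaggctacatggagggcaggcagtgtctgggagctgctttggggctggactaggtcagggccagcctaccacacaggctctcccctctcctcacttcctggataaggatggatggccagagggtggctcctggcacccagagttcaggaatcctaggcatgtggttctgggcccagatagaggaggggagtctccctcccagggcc
Muc16, chr9:18674604-18674853, minus strand: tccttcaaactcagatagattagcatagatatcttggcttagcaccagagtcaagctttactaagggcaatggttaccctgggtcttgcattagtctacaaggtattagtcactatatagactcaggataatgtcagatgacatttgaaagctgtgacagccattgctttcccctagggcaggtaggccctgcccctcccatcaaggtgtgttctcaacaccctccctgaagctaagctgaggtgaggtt
Lrrn4, chr2:132880892-132881112, minus strand: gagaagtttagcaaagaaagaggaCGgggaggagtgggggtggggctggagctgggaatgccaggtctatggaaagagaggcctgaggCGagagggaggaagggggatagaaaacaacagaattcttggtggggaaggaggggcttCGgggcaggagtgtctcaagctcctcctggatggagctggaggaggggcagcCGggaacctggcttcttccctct
Gpc3, chrX:52613975-52614224, minus strand: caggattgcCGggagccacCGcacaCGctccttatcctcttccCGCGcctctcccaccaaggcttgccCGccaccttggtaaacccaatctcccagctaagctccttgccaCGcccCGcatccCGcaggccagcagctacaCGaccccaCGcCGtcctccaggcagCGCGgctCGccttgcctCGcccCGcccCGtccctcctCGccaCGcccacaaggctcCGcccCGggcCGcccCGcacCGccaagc

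The 250 bases before the start held 0 CG in Muc16, 2 in Upk3b and 5 in Lrrn4 but 25 in Gpc3. The stretch printed for Lrrn4 is shorter, at 221 bases with 4 CG, because 29 bases annotated as exon in GENCODE were left out. The median over the 32851 promoters of the table was 6, and 90.4% of promoters held as many CG as Gpc3 or fewer. Among the other members, Bnc1 held 39 and Rspo1 22, and the 2 start regions of Gpm6a held 1 and 3. The table gives windows for 7 of the 10 members. The 8 windows were searched on both strands for 5 motifs, and a match is only a run of letters. The TEAD motif GGAATG was found in 3 of them (Upk3b, Lrrn4 and the first Gpm6a start), against 12.6% of all promoters. The TATA box TATAAA was found in 1, the second Gpm6a start, against 12.4% of all promoters. Neither the WT1 and EGR1 motif GCGGGGGCG (2.57% of all promoters), the WT1 motif GCGTGGGAG (0.40%) nor the AP-1 motif TGANTCA (6.75%) was in any of these windows.

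In chow-fed mice, 6 of the 10 genes were listed, and all 6 were lower in TET2 KO than in WT cells. Their log2 fold changes ran from -2.33 to -1.63 with a median of -1.89, whereas the median of all genes listed was -0.37. The table holds 13.9% of the 9338 genes. All 6 were called lower, as were 46.0% of the genes it lists, and 4 of the 6 had groups apart, beside 44.1% of the listed genes apart and lower. Because this contrast was among those that chose the genes, nothing further is read from these shares.

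Upk3b (ENSMUSG00000042985, chr5:136038496-136046487, plus strand) encodes uroplakin 3b, a membrane protein much used as a marker of lung mesothelium. Its level was 1.85, 2.40 and 0.639 FPKM in the WT chow libraries and 0.538, 0.445 and 0.344 FPKM in the TET2 KO chow libraries. All 3 WT values lay above the KO values, but the third by little, and the log2 fold change was -1.88 (SE 0.48). The related tetraspanin Upk1b (ENSMUSG00000049436, chr16:38773184-38800328, minus strand) stood at 0.470, 0.834 and 0.381 FPKM in WT and at 0.224, 0.116 and 0.109 FPKM in KO cells. Its groups were also apart, with a log2 fold change of -1.89 (SE 0.45) that rested on 9 to 64 reads per library.

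Msln (ENSMUSG00000063011, chr17:25748614-25754327, minus strand) encodes mesothelin, a lipid-anchored protein of the mesothelial cell surface. It showed the widest spread, at 1.49, 4.88 and 0.279 FPKM in WT and 0.576, 0.560 and 0.179 FPKM in KO cells. The third WT library lay below 2 of the KO libraries, so the groups overlapped and the log2 fold change of -2.33 had an SE of 0.93. The call did not hold in 5 of the 6 fits that left out 1 library (all but the one without the third WT library), with the value at -1.03 (SE 0.77) without the second WT library, nor with limma-trend (-1.69). Muc16 (ENSMUSG00000109564, chr9:18495455-18674530, minus strand), the mucin also known as CA125 that binds mesothelin, stood at 0.101, 0.119 and 0.0457 FPKM in WT and 0.0311, 0.0211 and 0.0144 FPKM in KO cells. These low levels come from a gene with 26350 bases of counted length, and the log2 fold change of -1.99 (SE 0.45) rested on 15 to 117 reads per library.

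Gpc3 (ENSMUSG00000055653, chrX:52272426-52613950, minus strand) encodes glypican 3, a heparan sulfate proteoglycan anchored in the cell membrane. It stood at 2.55, 2.76 and 1.00 FPKM in WT and 0.644, 0.835 and 0.564 FPKM in KO cells. The groups were apart and the log2 fold change was -1.63 (SE 0.40). Lrrn4 (ENSMUSG00000043110, chr2:132868305-132880891, minus strand), a leucine-rich repeat membrane protein used as a mesothelial marker, stood at 0.768, 0.777 and 0.242 FPKM in WT and 0.151, 0.260 and 0.136 FPKM in KO cells. Here the third WT library fell between the KO libraries, and the log2 fold change was -1.71 (SE 0.50). In bulk RNA, fewer cells of a type and less RNA per cell cannot be told apart.

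**Figure D1:**
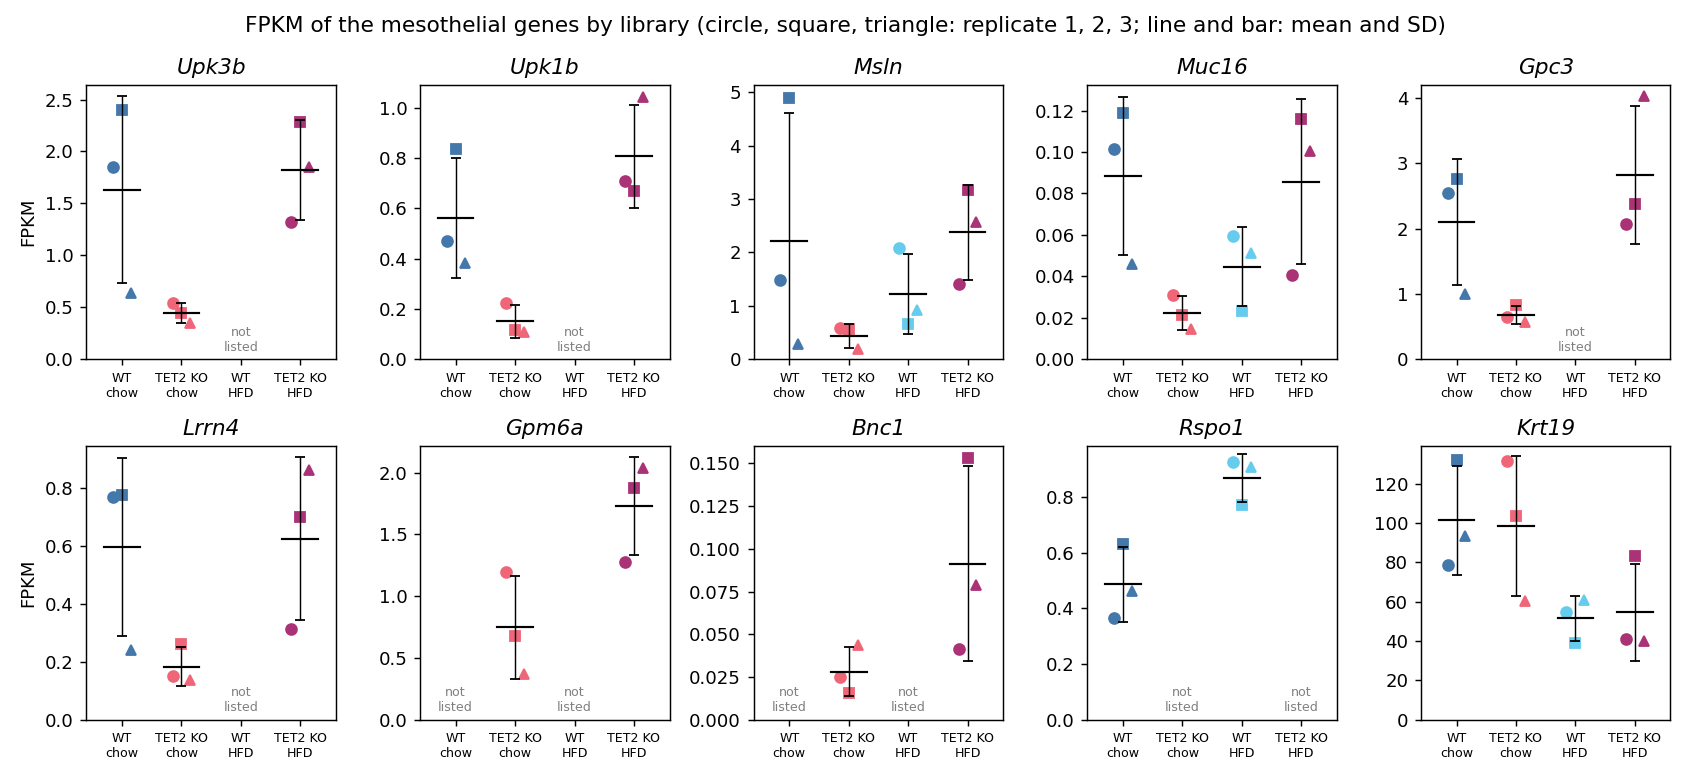
FPKM (vertical axis, linear, own scale in each panel) of the 10 mesothelial genes in the 4 groups, with 1 symbol per library and the mean ± SD of 3 libraries; "not listed" marks groups without a table that lists the gene. For Upk3b, the 3 TET2 KO chow libraries sat between 0.344 and 0.538 FPKM, below every WT chow and TET2 KO HFD library, and Krt19 lay between 38.9 and 132 FPKM, far above the other members.

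Between the diets in TET2 KO cells, 9 of the 10 genes were listed, and 8 of them were higher on HFD. The table holds 17.4% of the 9338 genes. These 8 were called higher, as were 29.3% of the genes listed, and 7 of them had groups apart, beside 30.2% of the listed genes apart and higher. The median log2 fold change of the 9 was 1.94, and that of all listed genes was -0.51. Scaling by TMM in place of the authors' size factors moved the median of all listed genes to -0.26 and the calls of this table from 477 higher and 777 lower to 636 higher and 354 lower. The same 8 members were called higher under both scalings. This table and the preceding one share the TET2 KO chow libraries, so that low values there enter both.

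Upk3b reached 1.32, 2.28 and 1.85 FPKM in the TET2 KO HFD libraries, a log2 fold change of 2.04 (SE 0.29) over the TET2 KO chow values given above. Upk1b stood at 0.708, 0.670 and 1.04 FPKM and rose by a log2 fold change of 2.41 (SE 0.42). Both uroplakin genes had every HFD library above every chow library.

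Msln reached 1.41, 3.16 and 2.56 FPKM on HFD, with a log2 fold change of 2.43 (SE 0.49). Muc16 stood at 0.0407, 0.116 and 0.101 FPKM, with a log2 fold change of 1.94 (SE 0.48). For both the groups were apart, although the first HFD library of Muc16 was close to the chow values.

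Gpc3 stood at 2.07, 2.37 and 4.03 FPKM on HFD, a log2 fold change of 2.05 (SE 0.32). Lrrn4 stood at 0.315, 0.698 and 0.862 FPKM, a log2 fold change of 1.77 (SE 0.46). The groups of both genes were apart.

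2 further members were listed in this table alone. Gpm6a (ENSMUSG00000031517, chr8:54954843-55060871, plus strand), a membrane glycoprotein best known from neurons, stood at 1.19, 0.676 and 0.370 FPKM on chow and 1.28, 1.88 and 2.03 FPKM on HFD. The groups were apart by a narrow gap between the first library of each, and the log2 fold change was 1.21 (SE 0.42). It was not called without the second chow library (1.14) or the third HFD library (1.07). Bnc1 (ENSMUSG00000025105, chr7:81966672-81992292, minus strand), the zinc finger protein basonuclin 1, had only 5, 3 and 8 reads on chow and 8, 28 and 14 reads on HFD. Its groups met at 8 reads and its log2 fold change of 1.68 had an SE of 0.66. It was no longer called in 4 of the 6 fits that left out 1 library, at 1.61 without the first and 1.39 without the second chow library, and at 1.08 without the second and 1.77 without the third HFD library.

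**Figure D2:**
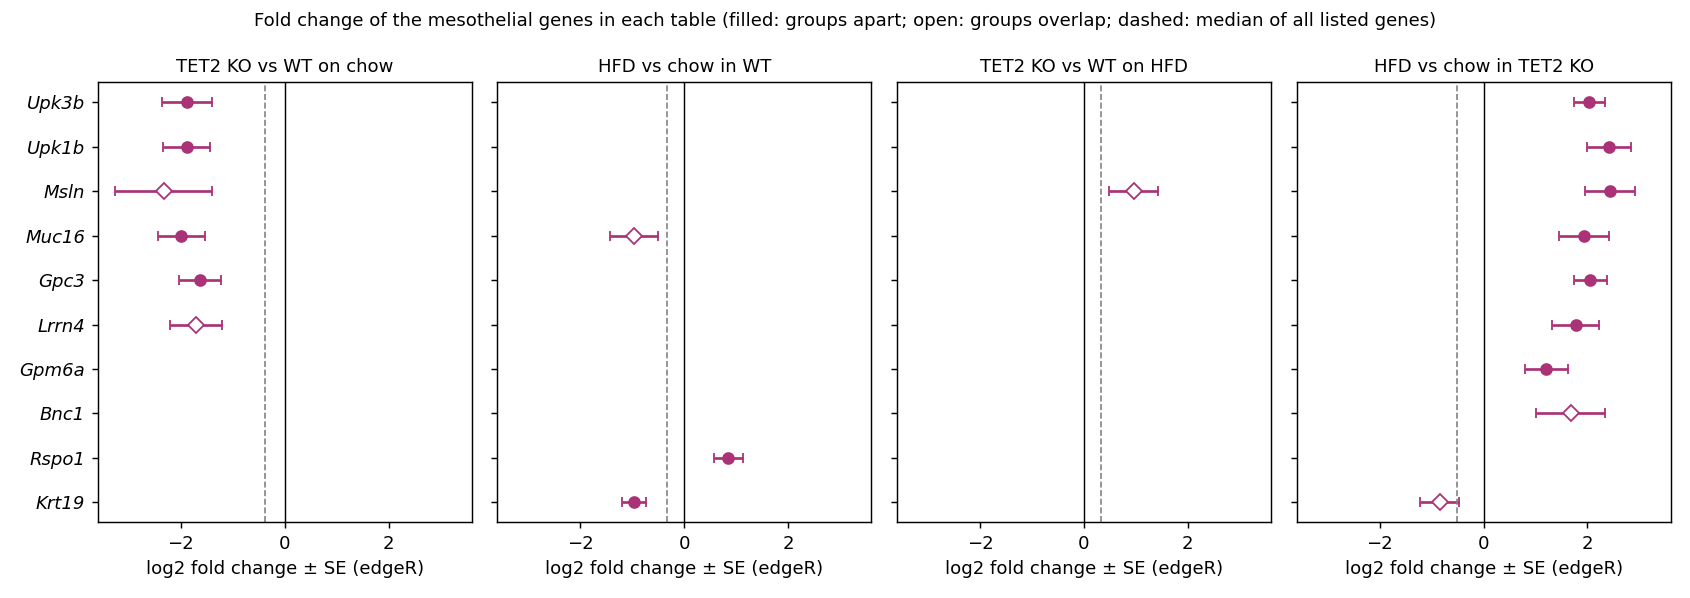
Log2 fold change ± SE from edgeR (horizontal axis) of each mesothelial gene in the 4 tables, with filled circles where the groups were apart, open diamonds where they overlapped, a dashed line at the median of all listed genes and no symbol where a table does not list the gene. The 6 genes listed between genotypes on chow lay between -2.33 and -1.63, and 8 of the 9 listed between diets in TET2 KO cells lay between 1.21 and 2.43, with Krt19 at -0.85.

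No table compares TET2 KO cells on HFD with WT cells on chow. The 6 members that both preceding tables list have values in both groups, and a fit over the 275 genes in both tables, scaled by library totals, gave a median log2 difference of 0.03. Upk3b differed by 0.16 (95% interval -1.16 to 1.48), Lrrn4 by 0.07 (-1.44 to 1.57) and Muc16 by -0.05 (-1.43 to 1.33). Msln differed by 0.10 (-2.31 to 2.52), Gpc3 by 0.42 (-0.79 to 1.64) and Upk1b by 0.52 (-0.52 to 1.57). Each interval, with 4 degrees of freedom, includes 0 and also differences of more than 1 on the log2 scale, so these libraries do not show that the groups were alike.

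Within a group the 6 members moved together from library to library. Among the WT chow libraries, the third was lowest in 6 of 6 members. Among the TET2 KO chow libraries, the third was again lowest in 6 of 6, and among the TET2 KO HFD libraries the first was lowest in 5 of 6. Their summed level was 7.23, 11.8 and 2.59 FPKM in WT chow, 2.17, 2.24 and 1.35 FPKM in TET2 KO chow and 5.86, 9.31 and 10.4 FPKM in TET2 KO HFD. The third WT chow library was thus nearer to the KO libraries than to the other WT libraries. Without it, the 6 log2 fold changes between genotypes on chow ran from -2.85 to -1.97 and all 6 were called. Each member's correlation with the mean z-score of the other 5 over the 9 libraries was 0.894 (Upk1b) to 0.983 (Upk3b). It is given without a p, since these points share the group pattern on which the genes were chosen.

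**Figure D3:**
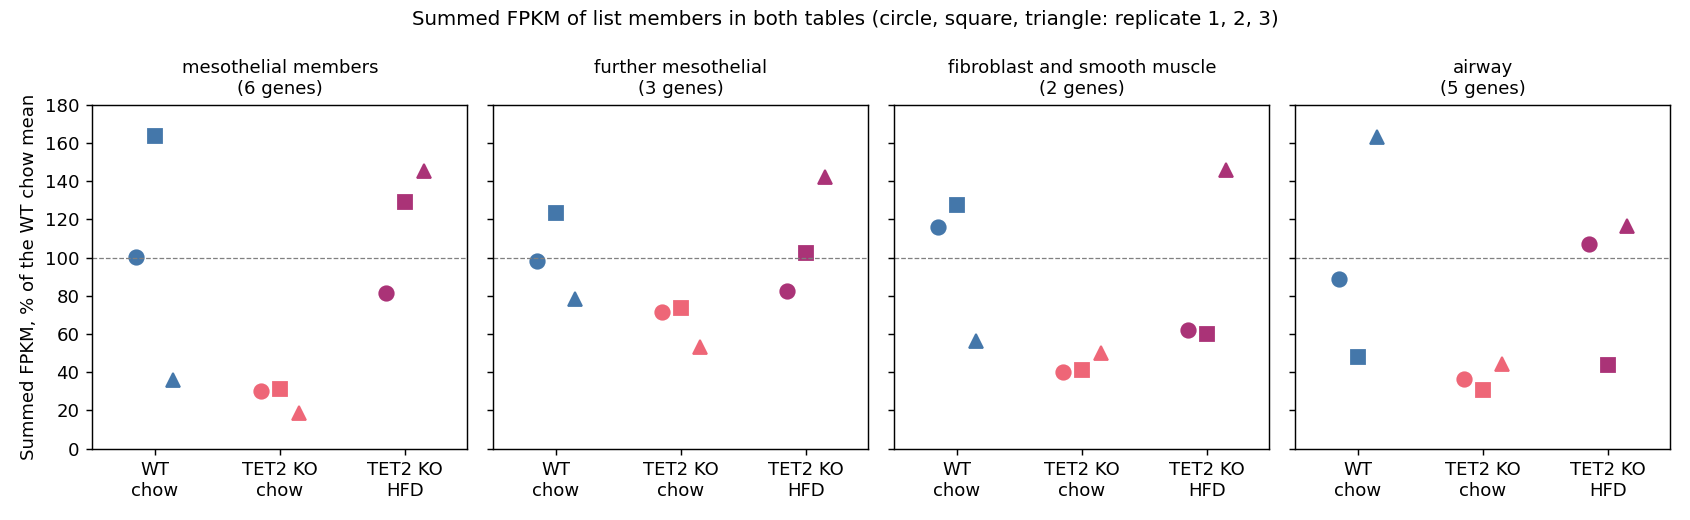
Summed FPKM per library as a percentage of the WT chow mean (vertical axis) for the 6 mesothelial genes, 3 further mesothelial genes, 2 fibroblast genes and 5 airway genes that both tables with TET2 KO chow libraries list, with 1 symbol per library. The mesothelial sum was 35.9% to 164% in WT chow, 18.7% to 31.1% in TET2 KO chow and 81.5% to 145% in TET2 KO HFD.

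Genes of other cell types were listed in the same tables. Of all genes listed, 46.0% were called lower between genotypes on chow and 29.3% called higher between diets in TET2 KO cells. Of 8 airway markers, 7 were listed and called lower in TET2 KO than in WT cells on chow. Their summed level was 4302 to 5699 FPKM in WT and 2367 to 3110 FPKM in KO cells, most of it from Scgb1a1. The 5 listed between diets in TET2 KO cells were called higher on HFD. Of 12 fibroblast and smooth muscle markers, 4 (Col1a1, Col1a2, Col3a1 and Dcn) were listed and called lower in the former comparison, and 7 were listed and 5 called higher in the latter. No endothelial marker was listed between genotypes on chow, and 1 of 14, Emcn, was called higher on HFD in TET2 KO cells. The summed level of the 5 airway genes in both tables was 39.0 to 133 FPKM in WT chow, 25.1 to 36.1 FPKM in TET2 KO chow and 35.9 to 95.01 FPKM in TET2 KO HFD. It was highest in the third WT chow library, which had the lowest mesothelial sum of the WT chow libraries. The sum of Col3a1 and Dcn was lowest of the WT chow libraries in that same library, at 2.53 FPKM against 5.20 and 5.71. Of 15 leukocyte markers, 3 were listed at higher means in TET2 KO than in WT cells on chow and 2 of them (Cd8a and Nkg7) were called higher, with a summed level of 24.9 to 38.1 FPKM in WT and 41.5 to 61.7 FPKM in KO cells. Between diets in TET2 KO cells 2 leukocyte markers, Cd8a and Lyz2, were listed and called lower on HFD. Over all genes listed, 397 of 1298 were called higher between genotypes on chow, and 777 of 1628 were called lower between diets in TET2 KO cells. No alveolar type 2 marker was listed in either table, and of the alveolar type 1 markers only Akap5 was listed, called lower on HFD in TET2 KO cells. None of the listed markers was at 0 in any library with a value for it, and their part in the mesothelial differences was not tested.

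A further 18 genes often detected in mesothelial cells were looked up, of which 8 were in any table. 10 of them, Wt1, Tbx18, Calb2, Aldh1a1, Aldh1a2, Igfbp5, Krt8, Krt18, Prg4 and C3, were in none, so that their levels were not analysed here. Of all 9338 genes, 13.9% were listed between genotypes on chow, and 46.0% of those listed were called lower. There, 3 of the 18 were listed, all at lower means in TET2 KO, and 2 were called lower. These were Pkhd1l1, a large membrane protein, at -1.35 (SE 0.36) and Efemp1, an extracellular matrix glycoprotein, at -0.71 (SE 0.26) on the log2 scale. Igfbp6, which binds insulin-like growth factors, stood at 8.34 ± 1.80 FPKM in WT and 5.77 ± 1.06 in KO cells (SD, n = 3) and was not called. Between diets in TET2 KO cells, 17.4% of the 9338 genes were listed, and 29.3% of those listed were called higher on HFD. There, 4 of the 18 were listed and 3 were called higher. Pkhd1l1 rose from 0.140 ± 0.022 to 0.459 ± 0.061 FPKM, a log2 fold change of 1.71 (SE 0.22). Nkain4 showed a log2 fold change of 2.24 (SE 0.75) on 1 to 45 reads per library, and Efemp1 one of 1.06 (SE 0.31). In both comparisons the share of the 18 that was listed was near that of all genes, so nothing further is read from these counts.

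By the rule of highest correlation with the mean z-score of the 6 members over 9 libraries, the 10 genes most like them were sought among 195 genes with a mean of at least 50 reads. These come from the 275 genes listed in both tables that hold the TET2 KO chow libraries, and so were already selected for a difference that involves those libraries. The 10 were Pkhd1l1 (r = 0.982), Gas1 (0.980), Pcolce (0.940), Igfbp6 (0.924), 1700058P15Rik (0.914), Col3a1 (0.909), Fmod (0.906), Cdh11 (0.90), Cox17 (0.899) and Tmem251 (0.895). The median over the 195 genes was 0.417, and 86 were below 0. Pkhd1l1 and Igfbp6 belong to the further mesothelial genes and Col3a1, the collagen of soft connective tissue, to the fibroblast list. Pcolce encodes an enhancer of procollagen processing, Fmod a collagen-binding proteoglycan and Cdh11 a cadherin of mesenchymal cells. Gas1, a growth arrest protein at the cell surface, stood at 0.641 ± 0.331 FPKM in WT chow, 0.210 ± 0.016 in TET2 KO chow and 0.657 ± 0.207 in TET2 KO HFD. 1700058P15Rik is annotated as an antisense RNA, and whether the counting used strand is not stated.

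**Figure D4:**
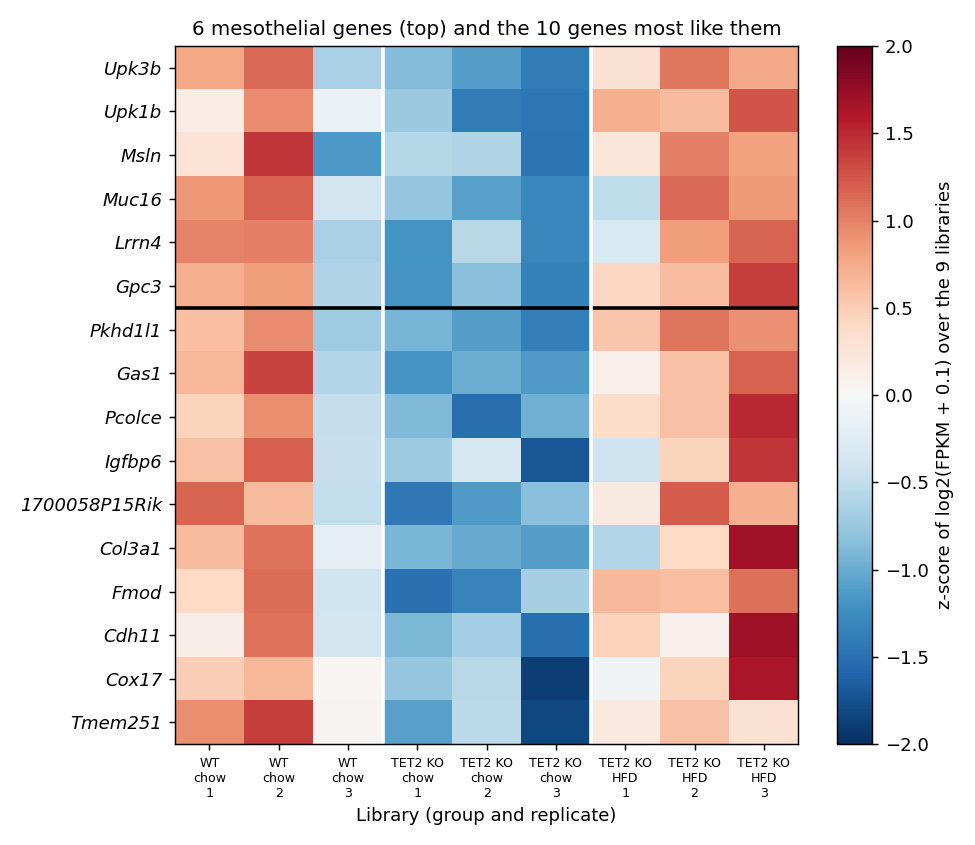
Z-scores of log2(FPKM + 0.1) over 9 libraries (colour) for the 6 mesothelial genes above the black line and the 10 genes most like them below it, with libraries in columns by group. The third WT chow library was below the 9-library mean in all 6 mesothelial genes, as were the 3 TET2 KO chow libraries.

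On HFD, 1 member was listed between the genotypes. Msln stood at 2.07, 0.658 and 0.917 FPKM in WT and at the 1.41, 3.16 and 2.56 FPKM given above in TET2 KO cells. The groups overlapped, and the log2 fold change of 0.96 (SE 0.47) was not called, in a table that holds 42.2% of the 9338 genes and of which 43.1% were called higher. Without the first WT library it was 1.59 and called, and without the first KO library it was 1.22 and called. Of the further genes, Cldn15, a claudin of tight junctions, was called higher in TET2 KO at 0.87 (SE 0.22) and Pkhd1l1 at 0.67 (SE 0.18). The keratin Krt7 was called lower at -0.94 (SE 0.22). Of the 3939 genes listed between genotypes on HFD, 1542 were called lower. Of 14 endothelial markers, 11 were listed here and 9 called lower in TET2 KO. The 11 had a summed level of 872 to 1550 FPKM in WT and 463 to 859 FPKM in KO cells. Of 10 alveolar type 1 markers, 8 were listed and 7 called lower in TET2 KO, with a summed level of 113 to 149.7 FPKM in WT and 48.4 to 81.5 FPKM in KO cells. The part of these markers in the value of Msln was not tested.

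Between the diets in WT cells, 3 members were listed in a table that holds 78.5% of all 9338 genes, and 2 were called beside 91.6% of the genes listed. The same 2 had groups apart, beside 86.5% of the genes listed. Rspo1 (ENSMUSG00000028871, chr4:124986430-125009099, plus strand), a secreted protein that strengthens Wnt signals, was listed in this table alone. It stood at 0.365, 0.632 and 0.463 FPKM on chow and 0.927, 0.770 and 0.908 FPKM on HFD, so that its groups were apart at a log2 fold change of 0.85 (SE 0.28). Without the first WT chow, the third WT chow or the first WT HFD library, it was 0.67 to 0.82 and not called. Muc16 stood at 0.0595, 0.0230 and 0.0513 FPKM on HFD, with a log2 fold change of -0.97 (SE 0.47) from chow that was not called and groups that overlapped. Without the third WT chow library this was -1.28 and called. In the same comparison, 3105 of the 7330 genes listed were called higher on HFD and 3607 lower. All 14 endothelial markers were listed at higher means on HFD and 13 called higher. Their summed level was 317 to 897 FPKM on chow and 933 to 1662 FPKM on HFD. Of the alveolar type 1 markers, 8 of 10 were listed and called higher, with a summed level of 48.2 to 99.6 FPKM on chow and 144.7 to 179 FPKM on HFD. Of 10 alveolar type 2 markers, 5 were listed at higher means and 2 called higher. Of 12 fibroblast and smooth muscle markers, 5 were listed at higher means and 3 called higher. Of 15 leukocyte markers, 3 were listed and called higher. Of 8 airway markers, Scgb1a1 and Bpifa1 were listed, both at lower means on HFD, and 1 was called lower. The part of these markers in the members' values was not tested. Of the further mesothelial genes, Krt7 (1.15, SE 0.27) and Dpp4, a peptidase of the cell surface (0.69, SE 0.18), were called higher and Cldn15 (-0.94, SE 0.20) lower, while Sulf1 at 0.71 (SE 0.31) was not called.

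Krt19 (ENSMUSG00000020911, chr11:100140810-100148665, minus strand) encodes a keratin of mesothelial cells that many simple epithelia, including those of the airways, also make. Its level was 78.7, 132 and 93.2 FPKM in WT chow, 131, 104 and 60.4 FPKM in TET2 KO chow, 54.7, 38.9 and 60.9 FPKM in WT HFD and 41.0, 83.2 and 39.9 FPKM in TET2 KO HFD. In TET2 KO HFD cells its mean was 19.4 times that of Gpc3, the next member in order of FPKM. It was called lower on HFD in WT cells at a log2 fold change of -0.97 (SE 0.24) with groups apart. In TET2 KO cells the log2 fold change was -0.85 (SE 0.37), with overlapping groups and no call, although DESeq2 and limma-trend did call it, as did the fits without the third chow (-1.10) or the second HFD library (-1.28). Its direction between the diets in TET2 KO cells was opposite to that of the other 8 members listed there.

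In order of mean FPKM in TET2 KO HFD cells, the 9 members listed there ran from Krt19 (54.7 ± 24.7, SD, n = 3) through Gpc3 (2.82 ± 1.06), Msln (2.38 ± 0.891), Upk3b (1.82 ± 0.481), Gpm6a (1.73 ± 0.399), Upk1b (0.807 ± 0.205) and Lrrn4 (0.625 ± 0.281) to Bnc1 (0.0912 ± 0.0571) and Muc16 (0.0857 ± 0.0397). Neighbours within the run Gpc3, Msln, Upk3b and Gpm6a differed by less than the larger SD of the pair, as did Upk1b from Lrrn4 and Bnc1 from Muc16. The steps from Krt19 to Gpc3, from Gpm6a to Upk1b and from Lrrn4 to Bnc1 were larger than either SD.

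3 members have values in all 12 libraries, which lets the diet effect be set side by side for the genotypes. The log2 ratio of mean FPKM, HFD over chow, was -0.87 in WT and 2.44 in TET2 KO cells for Msln, -0.99 and 1.95 for Muc16 and -0.98 and -0.85 for Krt19. Msln was not listed between the diets in WT cells. Its WT libraries overlapped, at 0.279 to 4.88 FPKM on chow and 0.658 to 2.07 FPKM on HFD. The WT groups of Muc16 overlapped too, and its change there was not called. In a fit of 975 genes with values in all libraries, the diet effect in TET2 KO minus that in WT was 3.29 (SE 1.14) for Msln, 2.92 (SE 0.73) for Muc16 and 0.13 (SE 0.50) for Krt19, with a median of 0.05 over all genes. No p is given, since the contrasts within it chose the genes. The remaining 7 members lack values in at least 1 group.

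Several members overlap other annotated genes in GENCODE M21 on GRCm38. Gpc3 and Rspo1 lie across from antisense genes, and Bnc1 across from a pseudogene. Other annotated transcripts lie within Gpm6a and Muc16. Without the strand setting of the counting, reads of overlapping genes on opposite strands cannot be told apart.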

How the data were processed

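CD31+ lung cell RNA was sequenced from 12 mice, 1 library each. According to the study's methods and the submitters' processing notes, the authors mapped paired-end reads of poly(A) RNA to mm10 (HISAT2), assigned them to genes (featureCounts) and compared groups with DESeq2. Tool versions, annotation and strand setting are not given in the sources used here. The authors deposited, for each listed gene, raw counts, a normalized signal (count divided by a size factor per library and table), FPKM and gene length. Columns with the authors' log2 fold changes and p-values were not used. Each table lists only genes under an unadjusted p of 0.05.

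Groups came from the sample labels. The members and gene lists were chosen with earlier results of these data known. Counts were fitted per table with edgeR 4.0.16 (quasi-likelihood, R 4.3.3), with library sizes from the authors' size factors, no covariate and a call at an unadjusted p under 0.05. The fit was also run on simulated counts with a fixed dispersion and no selection of genes. That run does not show how the fit performs on selected genes as variable as Msln. Alternatives were DESeq2 1.42.0, limma-trend (limma 3.58.1) on log2(normalized count + 1), TMM, library totals, a mean of at least 10, a replicate block, leave-one-out, and an adjusted p over 9338 genes. The likeness to the members used log2(FPKM + 0.1) and genes with a mean of at least 50 reads. Library totals, from counts, lengths and FPKM, were 36.7 to 56.8 M reads; at a few reads per library, as for Bnc1, counting error limits the values. Named were all members, all 18 further mesothelial genes, some genes of the other lists and the 10 genes most like the members. The planned order by mean FPKM and limit of 6 for each list were not kept throughout. The fit of the diet effect by genotype over all 12 libraries, scaled by library totals, was chosen after seeing the data.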

Additional observations from a re-analysis of the deposited data

How the results depend on the processing

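No member's log2 fold change turned sign under the alternatives run. Members called were 6 between genotypes on chow, 2 between diets in WT, 0 between genotypes on HFD and 8 between diets in TET2 KO. In the same order, calls among all genes listed were 994 of 1298, 6712 of 7330, 3241 of 3939 and 1254 of 1628. With an adjusted p under 0.05 the members called were 0, 2, 0 and 0. The calls among all genes listed were then 0 of 1298, 5349 of 7330, 0 of 3939 and 1 of 1628. In the same order, the further mesothelial genes called went from 2, 3, 3 and 3 without adjustment to 0, 3, 0 and 0. The adjustment used genes already selected for a low unadjusted p. It counted the genes listed in any table, not all genes the authors tested. These adjusted counts therefore cannot show which calls hold against all genes tested. Without each replicate in turn, members called ranged from 5 to 6 between genotypes on chow and 1 to 2 between diets in WT. In these fits the calls among all genes listed were 483 to 806 of 1298 and 4647 to 5633 of 7330. Members called ranged from 0 to 1 between genotypes on HFD, beside 1490 to 2849 of all 3939 genes listed. Between diets in TET2 KO they ranged from 6 to 9, beside 599 to 1062 of all 1628 genes listed. These include Krt19, called lower without the third chow or the second HFD library. The further genes called ranged from 1 to 3, 3 to 4, 3 to 3 and 3 to 4 in the same order. Between libraries of the same replicate number, deviations from the group means correlated at -0.10 to 0.18 over the genes listed. The labels do not say whether replicate numbers pair the samples, and these correlations over selected genes cannot settle it. With the replicate number as a block, Bnc1 between diets in TET2 KO was 1.57 and not called, Krt19 was -0.86 and called, and 17 other fold changes kept their call. Over 10 genes most like the members, 8 were shared with FPKM + 1 and 9 with no minimum of reads. The tables hold only selected genes, and genes missing from a table were not analysed there. Low counts limit Bnc1, Upk1b and Muc16 most.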
